A study of Mus musculus with 6 samples.

Results

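Interferon-stimulated genes are the genes that a cell switches on when it senses viral or misplaced nucleic acid, or when interferon reaches its surface. A list of 40 such mouse genes was followed in HOXA9-immortalized granulocyte-macrophage progenitors (iGMPs), to ask whether an early loss of the histone chaperone CAF-1 is accompanied by an interferon response. A gene was a member if its symbol stood in the count files, and 39 of the 40 did, among 34199 gene symbols in all. The missing symbol was Ifi27. Gene expression was measured by bulk RNA-seq, and 35 of the 39 members had enough reads to be tested, among 12460 tested genes.

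iGMPs are a clonal C57Bl/6 bone marrow line (Lys-GFP-ER-HoxA9), which carries a GFP reporter for lysozyme and is held in self-renewal by HOXA9 fused to an estrogen receptor domain. All cells grew in medium with SCF, and all were harvested at 24 h. CAF-1 OFF cells received 500 µM IPTG, which induces a short hairpin RNA against Chaf1b, the gene of a CAF-1 subunit, with estradiol (150 ng/ml) present. Control cells were also treated with IPTG in medium with estradiol (150 ng/ml), and the study describes a control vector with a spacer sequence. In HOXA9 OFF cells estradiol was washed out, which inactivates the fusion and starts myeloid differentiation. Whether these cells received IPTG, and which clone they came from, was not stated, so an effect of estradiol withdrawal cannot be told apart from a difference in IPTG or clone. Each group had 2 libraries, and the labels do not say whether these came from separate cultures. The study mentions independent sub-clones for RNA-seq of a later time, without a link to these libraries, so p-values here measure the spread between the libraries, which may be technical.

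As background, interferons of type I bind the receptor IFNAR1/IFNAR2, and the kinases JAK1 and TYK2 then phosphorylate STAT proteins. The complex ISGF3, which contains STAT2 and IRF9, then binds the interferon-stimulated response element (ISRE) in the promoters of its target genes. The products recognise viral RNA (IFIT, OAS and RIG-I-like proteins), restrict the entry of virus (IFITM proteins) or its release (tetherin), or tune the pathway itself (USP18, ISG15). Myeloid cells and stem cells are known to express part of these genes without interferon.

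The ISRE core was looked for in the RefSeq promoter windows of the members (GRCm38.p6, 250 bases before to 50 bases after the start site). The motif was GAAANNGAAA on either strand. The same letters make up the paired sites of interferon regulatory factors, so that the search cannot tell these factors apart. It was found in 16 of the 30 members that had a window (53.3%), against 3.99% of 27025 genes and 3.44% of 32851 windows of the same length. The stretches below are those of members on which the results turn, from members that were higher in HOXA9 OFF (Ifit1, Ifit3, Isg15, Oas3, Rsad2, Stat2 and Gbp2) and from members that exceeded their HOXA9 OFF level in CAF-1 OFF (Ifih1, Ifitm2 and Ifitm3). They are written 5′ to 3′ on the strand of the gene with the matches, overlapping ones joined, in capitals.
Ifit1: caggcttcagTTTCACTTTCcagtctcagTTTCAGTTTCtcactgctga
Ifit3: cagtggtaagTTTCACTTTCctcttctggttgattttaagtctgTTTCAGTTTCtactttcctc
Isg15: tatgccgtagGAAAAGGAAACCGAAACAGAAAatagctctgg
Oas3: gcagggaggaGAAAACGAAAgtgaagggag
Rsad2: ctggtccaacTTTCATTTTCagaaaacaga
Stat2: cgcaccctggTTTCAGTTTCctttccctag
Gbp2: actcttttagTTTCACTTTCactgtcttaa
Ifih1: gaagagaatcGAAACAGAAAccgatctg
Ifitm2: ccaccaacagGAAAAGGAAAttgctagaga
Ifitm3: gGAAAAGGAAActtctgaGAAACCGAAAc

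In GRCm38.p6, the Ifit1 stretch was chr19:34640775-34640823 on the plus strand, with its first match 104 bases upstream of the start site. The Ifit3 stretch was chr19:34583363-34583426 on the plus strand (156 bases upstream), and the Isg15 stretch was chr4:156200865-156200906 on the minus strand (78 bases upstream). The Oas3 stretch was chr5:120777715-120777744 on the minus strand (75 bases upstream) and that of Rsad2 was chr12:26456553-26456582 on the minus strand (120 bases upstream). Stat2 had its match 222 bases upstream (chr10:128270266-128270295, plus strand) and Gbp2 had it 59 bases upstream (chr3:142620594-142620623, plus strand). In Ifih1 the match began 32 bases downstream of the start site (chr2:62646206-62646233, minus strand), and in Ifitm2 it lay 46 bases upstream (chr7:140955988-140956017, minus strand). In Ifitm3 the first match began 2 bases downstream (chr7:141010715-141010743, minus strand). Ifit1, Ifit3 and Ifitm3 thus held the motif in separate places and Isg15 in overlapping copies, whereas the other members shown had a single match. Among members with a window, the motif was in 7 of the 13 called higher in HOXA9 OFF (53.8%) and in 9 of the 17 others (52.9%). Presence of these letters is a description and not evidence of binding.

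The libraries held between 16773560 and 25170898 gene counts, so that 3 counts were worth 0.118 to 0.182 CPM (counts scaled to a common library size, with TMM factors). Of the counts, members took 0.0660% and 0.0697% in the controls, 0.0662% and 0.0714% in HOXA9 OFF, and 0.0983% and 0.0805% in CAF-1 OFF. The targeted gene Chaf1b checked the labels, with 17.8 and 12.1 CPM with CAF-1 OFF, 90.0 and 105 CPM in the controls, and 64.6 and 61.4 CPM with HOXA9 OFF. Progenitor markers were present in every library but were not even across the groups. Of the 6 genes of that list, Kit, Cd34 and Flt3 were called lower in HOXA9 OFF than in control, with Flt3 at 5.02 and 3.46 CPM against 237 and 329 CPM and Cd34 at 484 and 507 CPM against 1805 and 1797 CPM. The granule genes Mpo (0.53 ± 0.22), Elane (0.76 ± 0.33) and Prtn3 (0.59 ± 0.19) had positive log2 fold changes that did not pass, and the summed list was 12277 and 9432 CPM in HOXA9 OFF against 11046 and 8102 CPM in control. In all libraries the T cell gene Cd3e and the NK cell gene Ncr1 were at 0. The neutrophil list (6 genes) had sums of 757 and 395 CPM under HOXA9 OFF, against 97.7 and 62.6 CPM for CAF-1 OFF and 36.6 and 58.4 CPM for control. The monocyte list (4 genes) summed to 425 and 479, 32.5 and 39.2, and 52.2 and 30.8 CPM in the same order. In bulk libraries, more cells of one type cannot be told apart from more RNA per cell.

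Most members were expressed at a low level in control cells. Per length of exon, as RPKM (CPM per kilobase) over GENCODE exons of mm9, the membrane proteins were the most abundant, with a mean control level of 250.1 RPKM for Ifitm2, 124 for Ifitm3, 74.4 for Ifitm1 and 64.1 for Bst2, which encodes tetherin. Trim25, a ubiquitin ligase that activates RIG-I, followed at 14.9 RPKM. The median over the 39 members was 0.800 RPKM and 20 of them were under 1 RPKM. Classical indicators of interferon signalling stood at or below this median, with Isg15 at 0.800, Rsad2 at 0.319, Ifit1 at 0.147 and Ifit3 at 0.0225 RPKM. The annotation used for counting was not stated, so these levels are approximate.

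**Figure D1:**
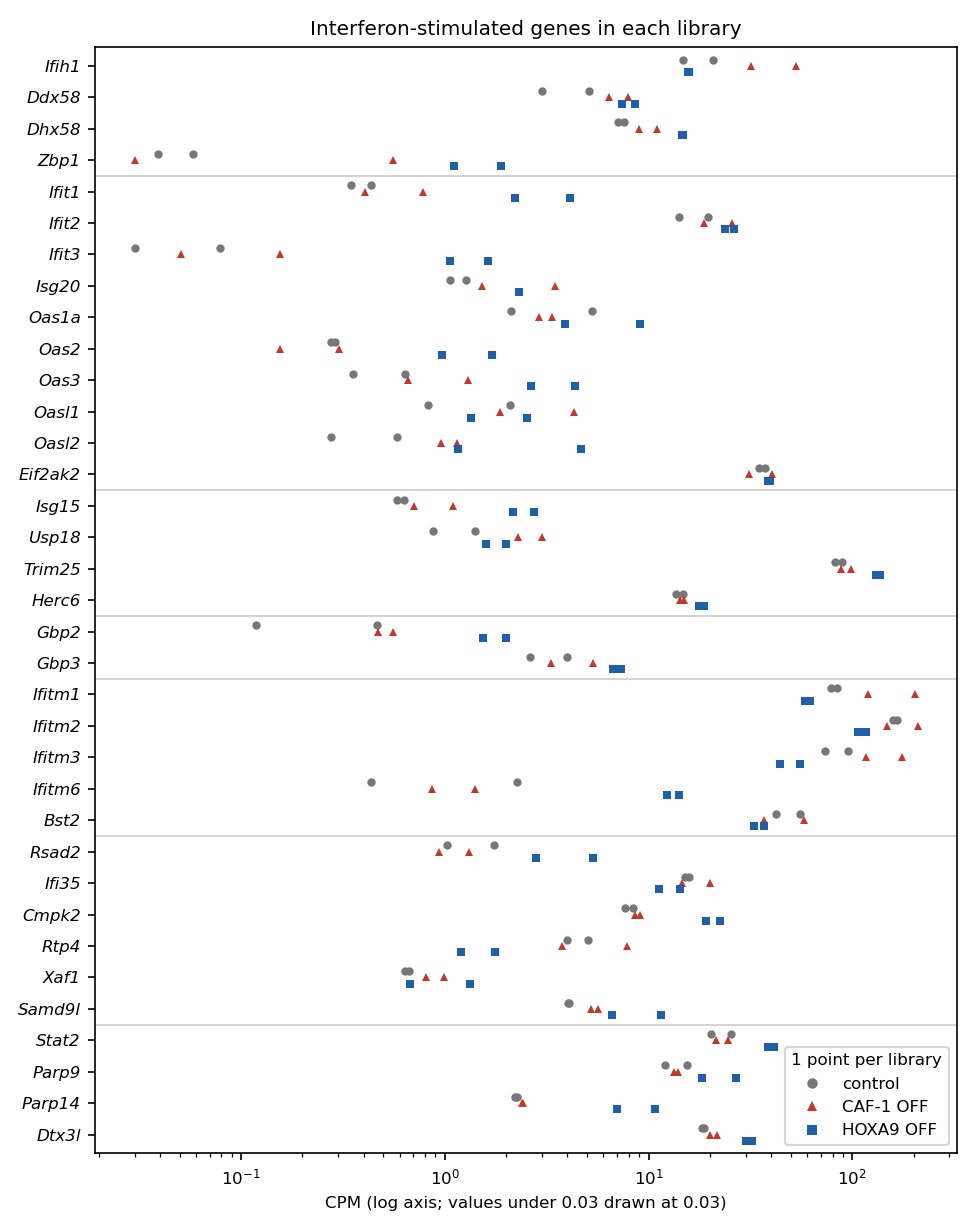
CPM of the 35 tested members in each of the 6 libraries on a log axis, 1 point per library, with members grouped by role between grey lines (sensors, RNA-directed effectors, ISG15 system, GTPases, membrane proteins, other effectors, transcription and ADP-ribosylation). Blue squares (HOXA9 OFF) lie to the right of both grey points (control) for 26 members, and red triangles (CAF-1 OFF) do so for 16.

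Not one member was called changed in CAF-1 OFF. By the edgeR quasi-likelihood test, with a call set at a 1.5-fold change or more and an FDR (Benjamini-Hochberg adjusted p) under 0.05, 0 of 35 members were higher and 0 were lower than in control. This test called few genes at all in that comparison, 0.0241% of all tested genes as higher and 0.00803% as lower. At an unadjusted p under 0.05 there were 5 members (Ddx58, Ifih1, Ifitm1, Ifitm3 and Usp18, all with positive log2 fold changes), or 14.3%, against 10.7% of all genes in either direction. The DESeq2 Wald test and the edgeR exact test each called 2 members higher, Ifih1 and Ifitm1, where they called 1.31% and 1.68% of all genes higher.

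The members nevertheless leaned upwards in CAF-1 OFF. Their median log2 fold change was 0.39, against -0.0044 for all genes, and 29 of 35 were positive (82.9%, against 49.2% of all genes). For 16 members (45.7%) the 2 libraries of CAF-1 OFF exceeded both controls, where 20.1% of all genes did. No member had both CAF-1 OFF libraries below both controls, where 20.0% of all genes did. The lean depended on the first CAF-1 OFF library, without which the median was 0.21. That library was above the second in 21 of 35 members. In the same libraries the neutrophil gene S100a8 was at 17.4 and 16.6 CPM against 2.51 and 2.32 CPM in control (2.80 ± 0.39, edgeR FDR 0.0976) and S100a9 at 5.61 and 5.27 CPM against 1.02 and 0.929 CPM, and their part in the lean was not tested. These shares describe the list and are not a test of it, since genes that respond together do not vary independently.

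By p, the leading members in CAF-1 OFF were an RNA sensor and membrane proteins, whereas some scarce members, such as Zbp1 (2.43 ± 1.51), had larger log2 fold changes with wide errors. Ifih1 encodes MDA5, the cytosolic sensor of long double-stranded RNA. It was at 31.7 and 53.1 CPM with CAF-1 OFF, 20.7 and 14.7 CPM in the controls, and 15.6 and 15.9 CPM with HOXA9 OFF. Both CAF-1 OFF libraries were thus above all of the others, which did not overlap with them. The log2 fold change against control was 1.25 ± 0.27 (SE, n = 2 per group), with an edgeR FDR of 0.213, the smallest of any member. Against HOXA9 OFF the log2 fold change was 1.43 ± 0.28 and passed (edgeR FDR 0.0109).

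Ifitm1 and Ifitm3 encode small membrane proteins that hinder the fusion of virus with the cell. Ifitm1 was at 202 and 119 CPM with CAF-1 OFF, 84.2 and 78.5 CPM in the controls, and 62.0 and 58.5 CPM with HOXA9 OFF. Ifitm3 was at 176 and 117 CPM with CAF-1 OFF, 73.5 and 94.9 CPM in the controls, and 44.0 and 55.2 CPM with HOXA9 OFF. For both genes the groups formed the same order without overlap, with CAF-1 OFF highest and HOXA9 OFF lowest. Against control, CAF-1 OFF had log2 fold changes of 0.98 ± 0.23 for Ifitm1 (edgeR FDR 0.246) and 0.80 ± 0.23 for Ifitm3 (edgeR FDR 0.312), which did not pass. Ifitm2, the most abundant member, was at 210 and 149 CPM in CAF-1 OFF, on either side of the controls at 159 and 167 CPM. Members of this family are similar in sequence, and reads with several alignments are not counted by HTSeq-count, so their levels carry that uncertainty.

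Usp18 and Oasl2 had the other leading fold changes among members with a mean of at least 1 CPM. Usp18, the protease that removes ISG15 and dampens the receptor, was at 3.01 and 2.28 CPM in CAF-1 OFF against 1.41 and 0.871 CPM in control, a log2 fold change of 1.19 ± 0.39 (edgeR FDR 0.363). Oasl2, an OAS-like protein, was at 1.14 and 0.962 CPM against 0.275 and 0.581 CPM, with 1.34 ± 0.78 (edgeR FDR 0.604). Neither difference passed, and the counts behind Oasl2 were between 7 and 22 in these libraries. The classical indicators were at similar low levels. Ifit1 was at 0.779 and 0.405 CPM in CAF-1 OFF against 0.432 and 0.348 CPM in control, and Isg15 was at 1.09 and 0.709 CPM against 0.628 and 0.581 CPM. Rsad2, which encodes viperin, was at 0.935 and 1.32 CPM against 1.02 and 1.74 CPM.

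How much of a change the data could hide differed from member to member. For 8 members the 95% interval of the log2 fold change in CAF-1 OFF lay within a 1.5-fold change in either direction (Cmpk2, Dtx3l, Eif2ak2, Herc6, Ifitm2, Parp9, Stat2 and Trim25). Stat2, the ISGF3 subunit whose own gene is interferon-inducible, had an interval from -0.36 to 0.38, and Trim25 had one from -0.13 to 0.38. For 14 of 35 members the upper bound was under a 2-fold increase. The scarce members were far less certain, as the interval of Ifit1 ran from -0.79 to 1.94, that of Isg15 from -0.46 to 1.58 and that of Zbp1 from -1.15 to 6.01. Increases of over 2-fold in these genes were therefore within what the data allow, at this depth and with 2 libraries per group.

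In HOXA9 OFF the members changed broadly. By the same test 17 of 35 members rose (48.6%, where 13.0% of all genes rose) and 2 fell (5.71%, where 8.97% of all genes fell). Both HOXA9 OFF libraries lay above both controls for 26 members (74.3%, against 35.1% of all genes) and below them for 6 (17.1%, against 35.9%). The median log2 fold change of the members was 0.82, against -0.0035 for all genes. Some of the members had passed the read filter, set at 0.521 CPM, because of HOXA9 OFF. Ifit3 and Oas2 reached it in no library of another group. Ifit1, Zbp1 and Gbp2 reached it in 3 libraries, and HOXA9 OFF was the only group with both. The filter asked for as many libraries as a group held, so all of these members entered only because of HOXA9 OFF. Their calls among the 17 are a description. Among the 18 members with a mean of at least 5 CPM over all libraries, 9 rose (against 13.9% of genes so filtered) and 1 fell (against 9.82%). That mean takes in the HOXA9 OFF libraries, so this count is not free of the same selection. Of the members that rose, Ifitm6 reached it only because of HOXA9 OFF (13.3 CPM, against 1.35 for control and 1.13 for CAF-1 OFF). Samd9l likewise owed its place to HOXA9 OFF (9.03, 4.05 and 5.44 CPM in the same order). Both of these calls are a description.

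**Figure D2:**
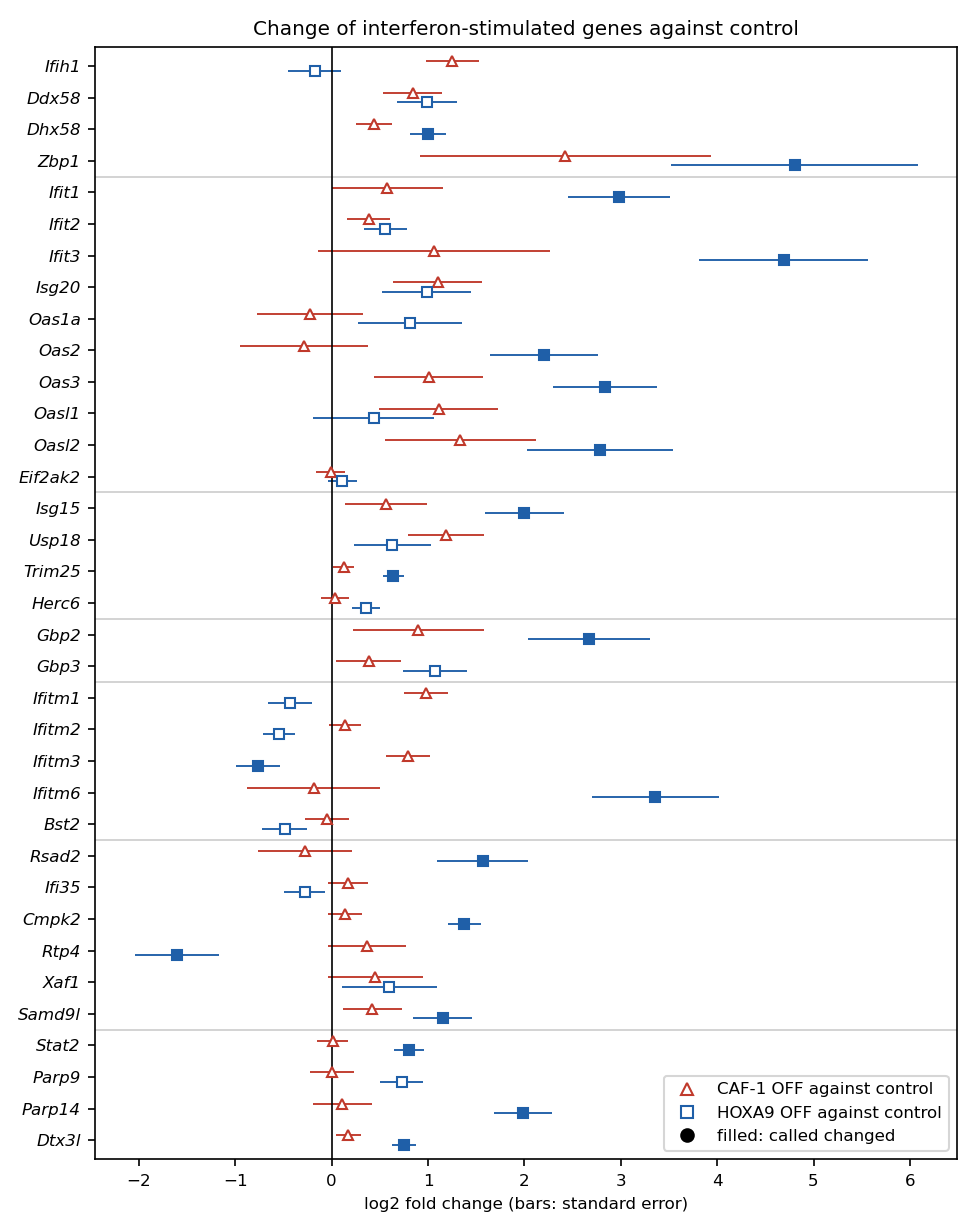
Log2 fold change of the 35 tested members against control, with bars for the standard error, in the order of the CPM plot. Filled symbols passed the edgeR call: 19 members in HOXA9 OFF (blue squares, 17 to the right of 0 and 2 to the left) and none in CAF-1 OFF (red triangles), and both comparisons share the control libraries.

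The RNA-directed effectors that rose did so from very low levels. Ifit1, which binds viral RNA ends, rose from 0.432 and 0.348 CPM in control to 2.22 and 4.12 CPM in HOXA9 OFF, a log2 fold change of 2.98 ± 0.53 (edgeR FDR 0.00793). Oas3, which makes the messenger that activates RNase L, rose from 0.354 and 0.639 to 2.65 and 4.37 CPM, by 2.84 ± 0.54 (edgeR FDR 0.00994). In absolute terms these remained low levels, as the Oas3 counts were 55 and 72 in HOXA9 OFF and 9 and 11 in control. Oas2 was at 0.965 and 1.70 CPM against 0.275 and 0.290 CPM in control (2.20 ± 0.56, edgeR FDR 0.0271), and Oasl2 rose from 0.275 and 0.581 to 1.16 and 4.67 CPM (2.79 ± 0.76, edgeR FDR 0.0333). In both HOXA9 OFF libraries each of these genes exceeded both controls. Ifit3 had 22 and 27 counts in HOXA9 OFF and 2 and 0 in control, so that its ratio, 28.1, carried a counting interval from 7.37 to 239. Ifit1, Oas2 and Ifit3 passed the read filter only because of their level in HOXA9 OFF, so that their calls are given as a description. The call of Oas2 was lost by the DESeq2 Wald test (adjusted p 0.0556). Among the other RNA-directed effectors, Ifit2, Isg20, Oas1a, Oasl1 and the kinase gene Eif2ak2 did not pass.

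Isg15, the ubiquitin-like modifier that is among the first genes to respond to interferon, was at 2.17 and 2.73 CPM in HOXA9 OFF against 0.628 and 0.581 CPM in control, a rise of 2.00 ± 0.41 on the log2 scale (edgeR FDR 0.0129). Trim25 rose from 88.8 and 82.7 to 137 and 130 CPM, by 0.64 ± 0.11 (edgeR FDR 0.00657). Usp18 and the ISG15 ligase gene Herc6 did not pass, at 0.63 ± 0.40 and 0.35 ± 0.15. Of the GTPases, Gbp2 rose from 0.118 and 0.464 to 1.54 and 2.00 CPM (2.67 ± 0.63, edgeR FDR 0.0209). Its call is a description, since it passed the read filter only because of HOXA9 OFF. Gbp3 just missed the call (1.07 ± 0.33, edgeR FDR 0.0508). Mx1 and Mx2, the dynamin-like antiviral GTPases, had too few counts to be tested.

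Of the sensors, Dhx58, which encodes LGP2, rose from 7.11 and 7.60 to 14.8 and 14.6 CPM (0.99 ± 0.19, edgeR FDR 0.00942). Ddx58, which encodes RIG-I, had the same log2 fold change, 0.99 ± 0.31, and missed the call (edgeR FDR 0.0527). Zbp1, the sensor of Z-form nucleic acid, had 23 and 31 counts in HOXA9 OFF and 1 and 1 in control, a ratio of 31.0 with a counting interval from 8.17 to 262. Ifih1, in contrast to its level in CAF-1 OFF, was at 15.6 and 15.9 CPM against 20.7 and 14.7 CPM in control (-0.18 ± 0.27, edgeR FDR 0.666). Of the 4 sensors, Dhx58 and Zbp1 were thus called higher in HOXA9 OFF (against 13.0% of all genes). The call of Zbp1 is a description, since it passed the read filter only because of HOXA9 OFF. It was also lost without any 1 of the 4 libraries compared. Ifih1 passed this test only where both induced states were compared with each other.

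Of the 4 members that act in transcription and ADP-ribosylation, 3 rose (against 13.0% of all genes). Stat2 rose from 25.4 and 20.2 to 38.5 and 41.1 CPM (0.80 ± 0.16, edgeR FDR 0.0108). Parp14, an ADP-ribosyltransferase, rose from 2.20 and 2.26 to 7.00 and 10.7 CPM (1.98 ± 0.30, edgeR FDR 0.00443). Dtx3l, a ubiquitin ligase and the partner of PARP9, rose from 18.3 and 18.6 to 30.0 and 32.1 CPM (0.75 ± 0.13, edgeR FDR 0.00686). All 3 genes had HOXA9 OFF libraries well clear of the controls, and the CAF-1 OFF libraries sat among or just above the controls. Parp9 missed the call (0.73 ± 0.23, edgeR FDR 0.0512). Parp9 and Dtx3l lie head to head on chromosome 16 of mm9 with 458 bp of exons on opposite strands in common, so that without a known strand setting reads of that stretch could belong to either.

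Cmpk2, the mitochondrial nucleotide kinase gene next to Rsad2 on chromosome 12, had the smallest FDR of the members, rising from 7.66 and 8.36 to 22.4 and 19.1 CPM (1.38 ± 0.17, edgeR FDR 0.00247). Its neighbour Rsad2 rose from 1.02 and 1.74 to 2.80 and 5.34 CPM (1.57 ± 0.47, edgeR FDR 0.0451). Samd9l, an antiviral factor and a regulator of myeloid growth, rose from 4.05 and 4.06 to 6.61 and 11.5 CPM (1.15 ± 0.30, edgeR FDR 0.0302). In mm9 the Cmpk2 gene spans 27154069 to 27164700 and Rsad2 spans 27127618 to 27141317, on opposite strands. The remaining effectors went the other way or did not move past the test, with Xaf1 at 0.60 ± 0.49 and Ifi35 at -0.28 ± 0.21.

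The membrane proteins divided. Ifitm6, a family member known from myeloid cells, rose from 0.432 and 2.26 to 14.1 and 12.4 CPM, by 3.36 ± 0.66 (edgeR FDR 0.0110). Ifitm3 fell by 0.76 ± 0.23 on the log2 scale (edgeR FDR 0.0468), and Ifitm2, at 117 and 107 CPM, lay below both controls with -0.54 ± 0.17, which is under the fold that a call required (edgeR FDR 0.0488). Ifitm1 and Bst2 also had both HOXA9 OFF libraries below both controls and did not pass. Rtp4, a chaperone of receptors that is strongly interferon-inducible in other settings, fell from 3.97 and 5.05 to 1.21 and 1.76 CPM (-1.61 ± 0.44, edgeR FDR 0.0335). The genes of Ifitm1, Ifitm2, Ifitm3 and Ifitm6 lie together on chromosome 7 of mm9, between 148140736 and 148202791.

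**Figure D3:**
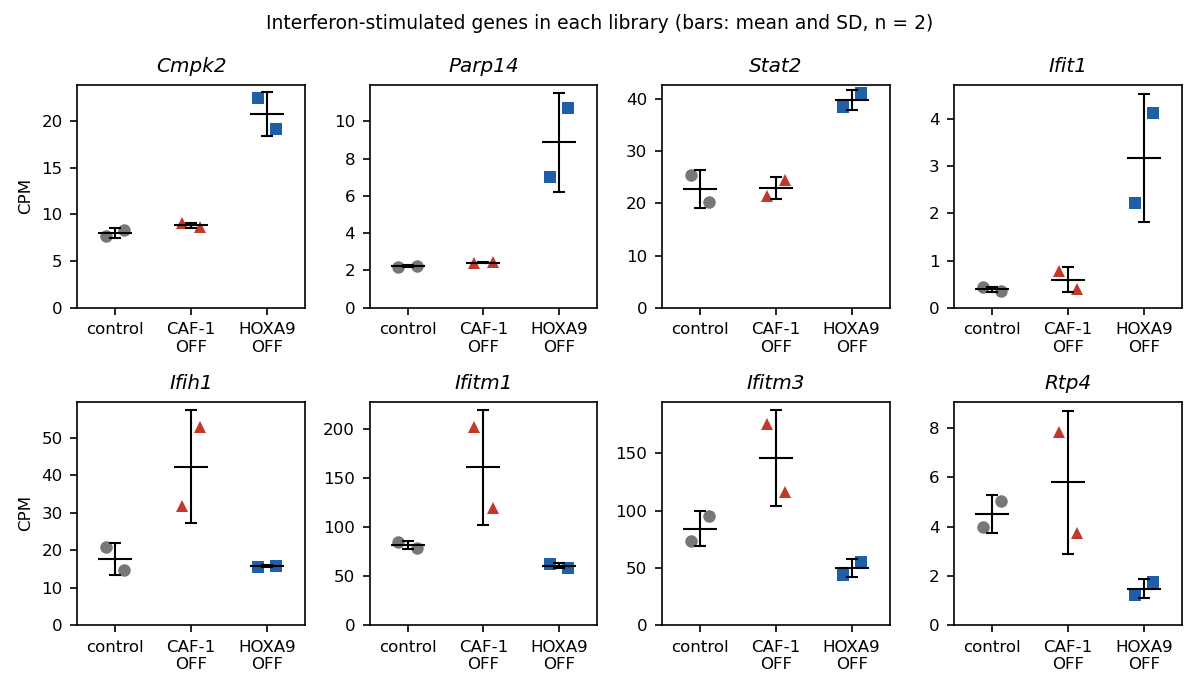
CPM of 8 members in each library (points) with the mean and SD of 2 libraries per group (black), on axes that start at 0. The upper row (Cmpk2, Parp14, Stat2, Ifit1) is highest in HOXA9 OFF with CAF-1 OFF near control. In the lower row, Ifih1, Ifitm1 and Ifitm3 are highest in CAF-1 OFF, and Rtp4 is lowest in HOXA9 OFF.

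The calls in HOXA9 OFF leaned on few libraries. Without the second HOXA9 OFF library, 9 members rose (against 9.62% of all genes) and none fell, and the calls of Isg15, Oas2, Oasl2, Rsad2, Samd9l, Stat2, Gbp2 and Zbp1 were lost. Without the first or the second control library 8 members rose each time (against 9.93% and 8.02% of all genes), and the calls of Ifitm3 and Rtp4 were lost without any 1 of the 4 libraries compared. The call of Zbp1 was likewise lost without any 1 of these 4 libraries, and that of Gbp2 without the first control library or either HOXA9 OFF library. The second HOXA9 OFF library was above the first in 26 of 35 members, by a median of 0.32 on the log2 scale. It also held 49 counts of Siglech, a plasmacytoid dendritic cell marker with 2 counts in the first HOXA9 OFF library and 0 in control and CAF-1 OFF, while another marker of these cells, Ccr9, was at 0 in both HOXA9 OFF libraries. The summed list of 4 such markers was 24.8 and 33.2 CPM in HOXA9 OFF, below the 38.5 and 45.6 CPM of control, a sum set mainly by Tcf4 (17.2 ± 4.10 against 34.7 ± 4.75 CPM, SD), whereas Il3ra was at 10.2 ± 0.253 against 7.31 ± 0.337 CPM. The neutrophil and monocyte lists were highest in the same group as these members, and their part in these results was not tested.

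The direct comparison of both induced states asked whether they differed from each other. Of 35 members, 5 were higher in CAF-1 OFF (Ifih1, Ifitm1, Ifitm2, Ifitm3 and Rtp4, 14.3%, where 9.56% of all genes were higher) and 10 were lower (28.6%, where 12.6% of all genes were lower). The median log2 fold change was -0.58 for the members, or -0.32 without the second HOXA9 OFF library, and 0.00075 for all genes. Among members with a mean of at least 5 CPM, 4 of 18 were higher (against 10.1%) and 3 were lower (against 13.3%). Of the 3, Ifitm6 reached that mean only because of HOXA9 OFF (13.3 CPM, against 1.13 in CAF-1 OFF and 1.35 in control), so that its call is a description. Without the second HOXA9 OFF library, 4 of 35 were higher (against 6.42% of all genes) and 3 lower (against 8.70%). The control libraries entered this comparison through the shared read filter, scaling and estimate of the spread, and without either of them, or in a fit of only the 4 libraries compared, Isg15 was lost and Gbp2 gained. Each group is shared with a comparison described above.

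All 5 members that were higher in CAF-1 OFF had both of its libraries above both HOXA9 OFF libraries. Ifitm3 differed by 1.56 ± 0.23 on the log2 scale (edgeR FDR 0.00461), Ifitm1 by 1.41 ± 0.23 (edgeR FDR 0.00633) and Ifitm2 by 0.68 ± 0.17 (edgeR FDR 0.0236). Rtp4 differed by 1.97 ± 0.44 (edgeR FDR 0.0173), with 7.85 and 3.75 CPM in CAF-1 OFF. On the other side, Cmpk2 was lower in CAF-1 OFF by -1.23 ± 0.17 (edgeR FDR 0.00362), Parp14 by -1.87 ± 0.30 (edgeR FDR 0.00564) and Stat2 by -0.79 ± 0.16 (edgeR FDR 0.0119). In each of these genes both CAF-1 OFF libraries were below both HOXA9 OFF libraries. Of the scarcer members, Ifitm6 (-3.54 ± 0.67, edgeR FDR 0.00988), Ifit3 (-3.63 ± 0.79, edgeR FDR 0.0162), Oas2 (-2.49 ± 0.59, edgeR FDR 0.0206) and Ifit1 (-2.40 ± 0.51, edgeR FDR 0.0152) were lower too. Of these, Ifit1, Ifit3 and Oas2 passed the read filter only because of their level in HOXA9 OFF, so that their calls among the 10 are a description. Also lower were Rsad2 (-1.84 ± 0.48, edgeR FDR 0.0283), Oas3 (-1.83 ± 0.51, edgeR FDR 0.0345) and Isg15 (-1.44 ± 0.40, edgeR FDR 0.0354). With the replicate block the calls of Oas3 and Isg15 were lost. The call of Isg15 was lost by the DESeq2 Wald test (adjusted p 0.0630), in a fit of only the 4 libraries compared (edgeR FDR 0.0550) and without any 1 of the 6 libraries (edgeR FDR from 0.0577 to 0.158).

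A further 62 genes of the interferon pathway outside the list gave the context, of which 42 could be tested. In CAF-1 OFF against control the edgeR quasi-likelihood test called 0 of the 42, with a median log2 fold change of 0.063. At an unadjusted p under 0.05 there were 6 (14.3%, against 10.7% of all genes), of which Cxcl9 was tested only through its level in CAF-1 OFF. The DESeq2 Wald test and the edgeR exact test called 1 gene higher, Ifi47 (2.38%, against 1.31% and 1.68% of all genes). Transcripts of the interferon ligand genes looked up were not seen beyond single reads. Of these 9 genes, which hold only Ifna1, Ifna2 and Ifna4 of the interferon alpha cluster, 8 were at 0 in all libraries (Ifng among them), and Ifnb1 had 1 count in a CAF-1 OFF library and 1 in a control library. A count of 0 allows up to 3 counts, which is at most 0.182 CPM in a library. This floor covers reads with a single alignment only, since reads with several alignments were not counted. The receptor genes of type I interferon were well expressed, as Ifnar1 had 91.8 and 89.2 CPM in the controls and 81.3 and 83.8 CPM under CAF-1 OFF.

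The smallest p of these genes in CAF-1 OFF was that of Ifi47. Ifi47, an immunity-related GTPase, was at 35.1 and 22.9 CPM with CAF-1 OFF, 13.7 and 10.6 CPM in the controls, and 21.9 and 23.5 CPM with HOXA9 OFF. Its log2 fold change in CAF-1 OFF was 1.25 ± 0.24 (edgeR FDR 0.162). The chemokine genes Cxcl9 and Cxcl10 were at 0.623 and 0.810 CPM and at 1.25 and 1.32 CPM in CAF-1 OFF, against 0.0786 and 0.232 CPM and 0.511 and 0.348 CPM in control. For Ifi47 and Cxcl10 the CAF-1 OFF values exceeded both control values without passing the test, and for Cxcl9 the values are a description, since it passed the read filter only through CAF-1 OFF. Also with an unadjusted p under 0.05 were Gbp7 (0.76 ± 0.21), Socs3 (1.00 ± 0.41) and Ptpn6, which was on the lower side (-0.35 ± 0.12).

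In HOXA9 OFF, 15 of the 42 pathway genes rose (35.7%, against 13.0% of all genes) and 1 fell (2.38%, against 8.97%). In the JAK-STAT list, the kinase gene Jak2 rose from 41.6 and 44.2 to 111 and 96.0 CPM (1.27 ± 0.12, edgeR FDR 0.000962), and Tyk2 and the inhibitor gene Socs3 rose too. Of the sensing genes, the endosomal receptor gene Tlr9 went from 0.943 and 0.232 to 8.97 and 11.5 CPM (4.03 ± 0.58, edgeR FDR 0.00376). Tlr7 had 82 and 129 counts in HOXA9 OFF and 4 and 0 in control. Tlr7, Tlr9 and Ifi203 passed the read filter only because of their level in HOXA9 OFF, so that their calls among the 15 are a description. Tlr7, Tlr9, their adaptor Myd88 and the factor Irf7 (1.41 ± 0.40, edgeR FDR 0.0385) form the endosomal branch, and Ikbke and Ticam1 also rose, while Mavs, Tmem173 (STING) and the cGAS gene, listed as E330016A19Rik, did not pass. The other increases were in Ifngr2, Samhd1, Ifi47, Igtp, Ifi203 and Ifi204, and Il10rb, a subunit of the interferon lambda and IL-10 receptors, fell (-0.77 ± 0.17, edgeR FDR 0.0176). Samhd1, which depletes nucleotides against viruses in myeloid cells, had the smallest FDR of the pathway genes, at 116 and 120 CPM against 39.6 and 39.5 CPM in control (1.58 ± 0.11, edgeR FDR 0.000493).

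**Figure D4:**
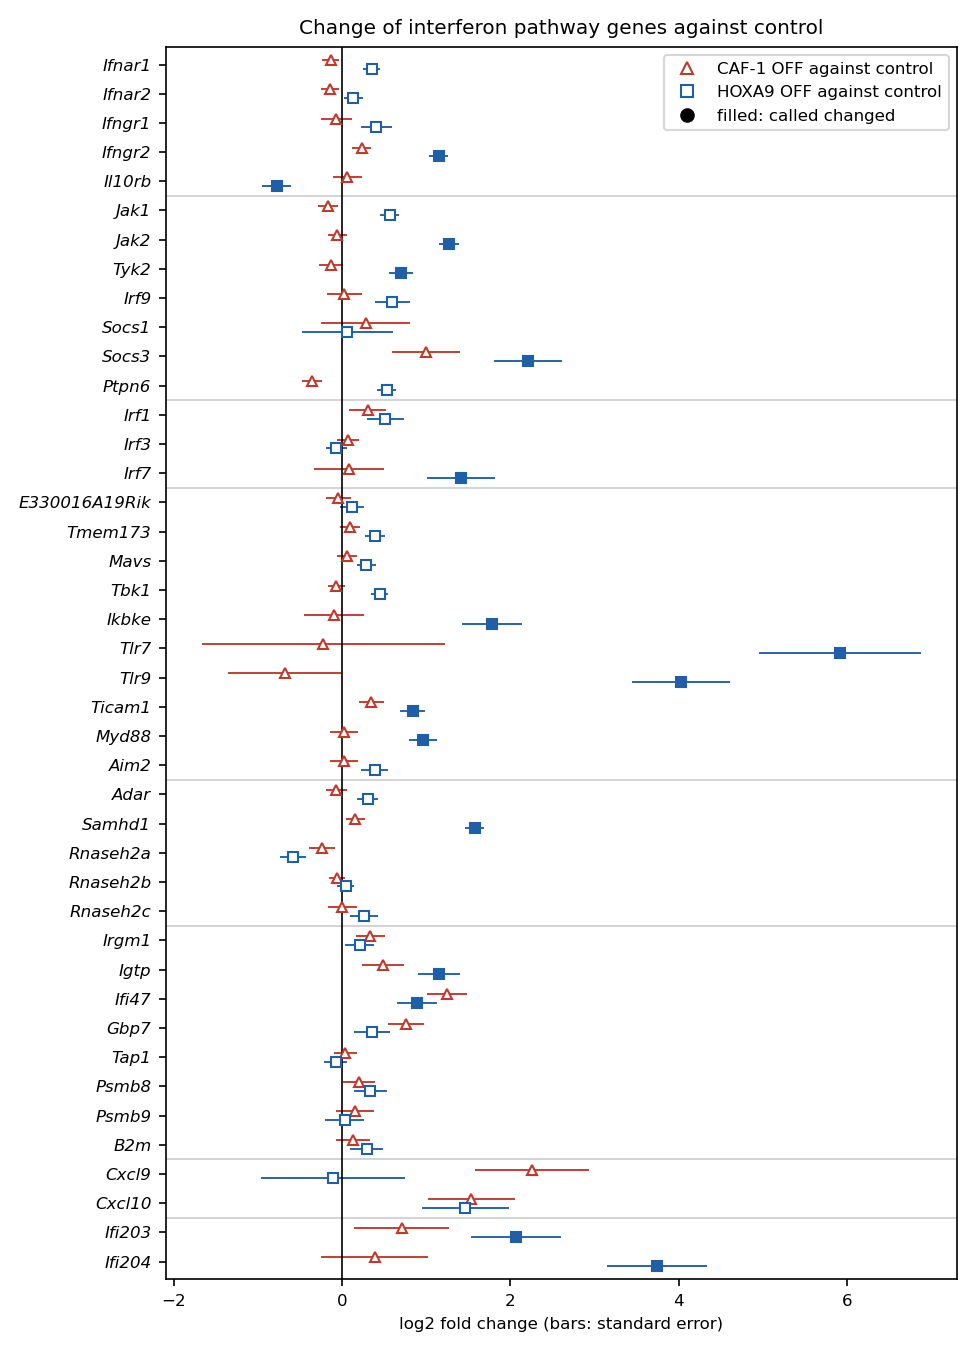
Log2 fold change against control of the 42 tested interferon pathway genes outside the list, with bars for the standard error, grouped between grey lines from receptors at the top to HIN-200 genes at the bottom. Filled symbols passed the edgeR call: 16 genes in HOXA9 OFF (blue squares) and none in CAF-1 OFF (red triangles).

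Between the induced states, 2 of the 42 pathway genes were higher in CAF-1 OFF (Il10rb and Cxcl9, 4.76%, against 9.56% of all genes) and 12 were lower (28.6%, against 12.6%). Cxcl9 passed the read filter only because of CAF-1 OFF, and Tlr7 and Tlr9 only because of HOXA9 OFF, so that these calls are a description. Jak2 was lower by -1.32 ± 0.12 (edgeR FDR 0.000945) and Jak1 by -0.73 ± 0.12 (edgeR FDR 0.00541). Stat2, Ifit1, Isg15, Oas3 and Rsad2 were also among the members lower in CAF-1 OFF, whereas Ifih1, Ifitm1, Ifitm2, Ifitm3 and Rtp4 were higher. A link between the kinase genes and the members was not tested. Irf9, which encodes a further ISGF3 subunit, was at 12.4 and 15.2 CPM in HOXA9 OFF, above the 9.92 and 8.66 CPM of CAF-1 OFF, and did not pass (-0.57 ± 0.20, edgeR FDR 0.0755).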

How the data were processed

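RNA-seq was performed on 6 libraries, 2 each of CAF-1 OFF, control and HOXA9 OFF. The authors aligned reads to mm9 with STAR and deposited raw read counts per gene from HTSeq-count. The annotation and strand setting are not given in the sources used here. The 5 tally lines of each file were left out. The tests used edgeR 4.0.16 (R 4.3.3, limma 3.58.1): filterByExpr, TMM scaling, 1 mean per group over all 6 libraries, quasi-likelihood F tests, and Benjamini-Hochberg adjustment over 12460 genes. Standard errors came from the F statistic, intervals (95%) from its degrees of freedom, and ratios of scarce counts have exact binomial intervals. Floors and these intervals cover counting error only. Alternatives included DESeq2 1.42.0, and the model was tested on simulated data. Libraries of a group differed beyond sampling noise (chi-square per degree of freedom of at least 20.5). Named genes were the called members, the 3 with the largest change per comparison at a mean of at least 1 CPM, and called pathway genes with at most 4 others. Further members and pathway genes, and the ISRE search, were chosen after values were seen. The members and lists were chosen with earlier results of these data known. Coordinates are 1-based, for mm9 from GENCODE, and promoters are RefSeq GRCm38.p6, without any conversion. One gene of the pathway lists is not reported here and was left out of their counts.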

Additional observations from a re-analysis of the deposited data

Results flagged for a closer look

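Mx1, an antiviral GTPase that is among the most inducible interferon-stimulated genes, had too few reads to enter the comparisons. Its counts were 6 and 7 in HOXA9 OFF, 0 and 3 in CAF-1 OFF, and 0 in both control libraries. It was flagged because both HOXA9 OFF counts were over 3 and above both control counts, so that its rise is a description. Against a floor of 3 counts over the control group, its level in HOXA9 OFF was 4.97-fold. This ratio leaves out the counting error of the HOXA9 OFF counts. The C57BL/6 strain is known to carry a deletion in Mx1.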

How the results depend on the processing

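Replicate numbers were shared by the groups, and nothing says that they pair cultures. Same-numbered deviations correlated by -0.178 for CAF-1 OFF and control, 0.456 for HOXA9 OFF and control, and 0.0329 for CAF-1 OFF and HOXA9 OFF. With the replicate block, the calls were 0 members in CAF-1 OFF against control (0.0161% of all genes). In HOXA9 OFF against control they were 18 (17 shared, 21.5% of all genes), where Ifitm3 and Rtp4 were lost. Between the induced states they were 14 (13 shared, 21.5% of all genes), where Isg15 and Oas3 were lost. Parp9 was gained in both. A crossed block, added after the data were seen, called 1 member (Ifitm3) in CAF-1 OFF, and 71 genes in all. In CAF-1 OFF against control, the DESeq2 Wald and edgeR exact tests called 2 members and 1 pathway gene (1.54% and 1.95% of all genes), and the analysis without a filter called 3 members (Ifih1, Ifitm1, Ifitm3) and 1 pathway gene (1.90%). Leaving out single libraries gave 0 members throughout and medians from 0.21 to 0.43. In HOXA9 OFF against control, 10 members and 10 pathway genes were called at a mean of at least 5 CPM (23.7% of all genes), 5 and 7 at a 2-fold change and an FDR under 0.01 (7.92%), and between 8 and 19 members without single libraries (12.8% to 22.6%, against 22.0% with all), with medians from 0.70 to 1.04. Between the induced states, these settings called 7 and 5 members and 9 and 5 pathway genes (23.4% and 7.61% of all genes), and leaving out single libraries gave 7 to 15 members (13.8% to 21.9%, against 22.1%) and medians from -0.67 to -0.32. With 1 library left in a group, that library is assumed to vary like the other groups. The smaller counts at 5 CPM come with fewer members tested (18), and elsewhere the cause was not tested. No named member changed direction. Scarce members such as Ifit3 and Zbp1 had wide errors, and the part of depth in this was not tested.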

Other observations

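In the files, 3 rows bear names related to Ifi27, the member whose symbol was missing. Their identity with it was not settled, so none of them was counted as a member. Ifi27l1 had 1005 and 621 counts for CAF-1 OFF, 901 and 594 counts for control, and 902 and 572 counts for HOXA9 OFF. Ifi27l2a had 3 and 1, 1 and 3, and 14 and 25 counts in the same order, and Ifi27l2b was at 0 in all libraries. The members too scarce to test were Mx1, Mx2 (0 and 2, 0 and 7, and 3 and 4 counts), Oas1g (2 and 1, 2 and 1, and 0 and 3 counts) and Ifi44 (0 in all). Oas1g has a near-identical neighbour in Oas1a, at 2.12 to 9.03 CPM over the libraries, and reads that fit both were not counted.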
